A study of Mus musculus with 9 samples.

Results

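AP-1 is a family of transcription factors that bind DNA as pairs of leucine zipper proteins. The members described here are Fos, Fosb and Fosl2 of the FOS type, Jun, Junb and Jund of the JUN type, Atf3, the small MAF gene Maff, and Batf3. They were chosen by name, with earlier results of these data known, and their Ensembl identifiers were mapped to these symbols. Counts of members set beside the share of all genes therefore describe the set and do not test it. All 9 were found among the 53801 genes of the count table, and all 9 passed the filter on low counts.

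The data are RNA-seq counts of CD11b+ cells that were sorted by FACS from the tumor-bearing brain hemispheres of adult male C57BL/6J mice. Every mouse carried a GL261 glioma, a syngeneic mouse line labelled with tdTomato and luciferase, which had been implanted into the right striatum of an immunocompetent host. The 2 CTR libraries came from mice given saline, and the 2 OAT-1746 libraries from mice given the arginase 1 and 2 inhibitor OAT-1746 by oral gavage. The 2 anti-PD-1 libraries came from mice injected intraperitoneally with an antibody against the immune checkpoint receptor PD-1, and the 3 COMB libraries from mice given both agents. The hemispheres were dissociated with papain before the sort, and the labels do not say how many mice each library holds. Library totals ranged from 13048075 to 18796479 counts. Itgam, which encodes the sorted antigen CD11b and was looked up for this check after its values were seen, lay between 294 and 446 CPM (counts scaled to library size) in the 9 libraries.

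FOS proteins cannot pair with each other and bind DNA with a JUN partner, whereas JUN proteins can also pair among themselves. Most of these genes are immediate early genes, whose transcription starts within minutes of a signal through MAP kinases, calcium or cell stress and does not need new protein. In microglia and macrophages AP-1 pairs act at enhancers together with the lineage factor PU.1, and both inflammatory stimuli and tissue handling are known to switch the genes on.

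OAT-1746 replicate 2 stood apart from the other libraries. It had the highest level of all 9 libraries in 30.2% of the 12538 tested genes and the lowest in 31.6%, against at most 17.7% and 15.2% in any other library. It was the highest of all 9 libraries for 6 of the 9 members, Fos, Fosb, Jun, Junb, Jund and Atf3. The fold changes of these 6 members in the comparisons that use OAT-1746 are therefore given with and without it, while correlations and the lists of other genes used all 9 libraries only.

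Fos (ENSMUSG00000021250, chr12:85473890-85477273, + strand, GRCm38) encodes the founding FOS protein. The promoters of the members were searched because 6 members moved together. Sequences are from RefSeq (GRCm38.p6), where all 9 members had a window of 250 bases before to 50 bases after the start, 11 windows in all since Maff has 3 starts. Both strands were searched for the AP-1 element TGACTCA, the cAMP response element TGACGTCA, its core TGACGT, which TGACGTCA contains, the Jun-type element TGACATCA, and the CArG box of SRF. Of all 32851 windows in the table, 5.20% held TGACTCA, 1.79% TGACGTCA, 7.51% TGACGT, 3.62% TGACATCA and 1.63% a CArG box. A match describes the letters and is not a binding site. The 150 bases before the start of Fos, at chr12:85473740-85473889 on the + strand, are shown with the match to TGACGT in capitals, at positions -66 to -61, and they also hold TATAAA, found in 13.6% of all windows, at -33 to -28.
Fos: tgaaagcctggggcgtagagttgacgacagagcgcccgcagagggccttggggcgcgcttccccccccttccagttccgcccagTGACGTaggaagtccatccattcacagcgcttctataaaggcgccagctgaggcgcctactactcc

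Fos was at 2297 and 1803 CPM in CTR, 1883 and 3749 CPM in OAT-1746, 1759.6 and 2128 CPM in anti-PD-1, and 854, 968 and 1020.0 CPM in COMB. The 3 COMB libraries lay below every other library, while CTR, OAT-1746 and anti-PD-1 overlapped and OAT-1746 replicate 2 was alone at the top. Fosb (ENSMUSG00000003545, chr7:19302696-19310051, - strand), a close relative of Fos with a stable shorter splice form, was at 332 and 208 CPM in CTR, 302 and 1203 CPM in OAT-1746, 102 and 399 CPM in anti-PD-1, and 53.4, 43.0 and 44.9 CPM in COMB. Again COMB lay below the 6 other libraries, and the replicates of OAT-1746 and of anti-PD-1 were each 3.98-fold and 3.89-fold apart. Fosb had the widest range of the 9 members, 28.0-fold between its highest and lowest library, against 4.39-fold for Fos.

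Fosl2 (ENSMUSG00000029135, chr5:32135801-32157842, + strand) encodes FRA2, a FOS protein without a strong activation domain. It was at 132 and 112 CPM in CTR, 117 and 103 CPM in OAT-1746, 55.5 and 204 CPM in anti-PD-1, and 43.7, 60.1 and 75.5 CPM in COMB. CTR and OAT-1746 lay close together and above COMB, and anti-PD-1 held both a value inside the COMB range and the highest of all 9. OAT-1746 replicate 2, which was highest for Fos and Fosb, was the lower OAT-1746 library for Fosl2. None of the searched elements, TATAAA included, occurred in the Fosb and Fosl2 windows.

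Jun (ENSMUSG00000052684, chr4:95049034-95052222, - strand) encodes c-JUN, whose activity rises when JUN kinases phosphorylate it. The 150 bases before its start, at chr4:95052223-95052372 on the - strand, carry TGACATCA at -45 to -38, in capitals, an element of the kind through which Jun is known to drive its own transcription.
Jun: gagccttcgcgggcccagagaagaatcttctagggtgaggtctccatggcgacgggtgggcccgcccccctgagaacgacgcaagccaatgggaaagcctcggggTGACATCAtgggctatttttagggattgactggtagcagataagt

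Jun was at 1412 and 1244 CPM in CTR, 2826 and 4376 CPM in OAT-1746, 1587 and 2184 CPM in anti-PD-1, and 821, 671 and 718 CPM in COMB. The 4 groups did not overlap: OAT-1746 lay above anti-PD-1, anti-PD-1 above CTR, and CTR above COMB. Junb (ENSMUSG00000052837, chr8:84974484-84978718, - strand), a weaker activator that can hold back Jun, was at 2520.5 and 2365 CPM in CTR, 2986 and 3004 CPM in OAT-1746, 1653 and 2774 CPM in anti-PD-1, and 1092, 1331 and 1356 CPM in COMB. COMB was again below every other library. The Junb replicates of OAT-1746 were nearly equal, at a ratio of 1.01, so here OAT-1746 replicate 2 did not stand apart from replicate 1.

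Jund (ENSMUSG00000071076, chr8:70698949-70700616, + strand) encodes the JUN protein that resting cells express most broadly. It was at 322 and 282 CPM in CTR, 555 and 726 CPM in OAT-1746, 521 and 721 CPM in anti-PD-1, and 312, 285 and 318 CPM in COMB. Here CTR and COMB overlapped, and so did OAT-1746 and anti-PD-1, with a gap between the 2 pairs of groups. Jund was thus the member of this set whose COMB level lay at the CTR level while each single agent lay above it. Its RefSeq window, which lies upstream of the gene's GENCODE start, held none of the searched elements. The Junb window held TATAAA only, at 1 to 6 (chr8:84978743-84978748, - strand). Those bases lie upstream of the GENCODE start of Junb, at 84978718.

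Atf3 (ENSMUSG00000026628, chr1:191170296-191218039, - strand) encodes a stress-induced factor that pairs with JUN proteins and dampens inflammatory genes in macrophages. The 150 bases before its start, at chr1:191183334-191183483 on the - strand, hold ACGTCA at -8 to -3, which is TGACGT read on the opposite strand, in capitals.
Atf3: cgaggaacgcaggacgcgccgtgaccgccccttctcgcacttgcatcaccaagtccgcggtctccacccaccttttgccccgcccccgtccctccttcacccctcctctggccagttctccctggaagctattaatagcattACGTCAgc

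Atf3 was at 367 and 256 CPM in CTR, 501 and 1093 CPM in OAT-1746, 419 and 616 CPM in anti-PD-1, and 188, 159 and 188 CPM in COMB. COMB lay below the 6 other libraries, CTR lay between COMB and both single agents, and OAT-1746 and anti-PD-1 overlapped.

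Maff (ENSMUSG00000042622, chr15:79346621-79359076, + strand) encodes a small MAF protein, which has no activation domain and pairs with FOS proteins or with NRF2. It was at 19.1 and 15.0 CPM in CTR, 19.7 and 18.8 CPM in OAT-1746, 17.2 and 29.2 CPM in anti-PD-1, and 14.9, 17.9 and 18.9 CPM in COMB. All 4 groups overlapped with at least 1 other, and 8 of the 9 libraries lay between 14.9 and 19.7 CPM. The Maff window at the middle of its 3 starts is shown since it held the full TGACGTCA, at -29 to -22; which start is used was not tested. The stretch is chr15:79347370-79347519 on the + strand, and the window of the last start held TGACATCA.
Maff: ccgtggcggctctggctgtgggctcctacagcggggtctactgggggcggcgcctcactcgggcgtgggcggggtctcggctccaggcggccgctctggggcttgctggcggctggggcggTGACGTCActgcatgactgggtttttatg

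Batf3 (ENSMUSG00000026630, chr1:191097847-191108945, + strand) encodes a JUN partner that cross-presenting dendritic cells need for their development. It was the least abundant member, at 8.47 and 8.12 CPM in CTR, 11.5 and 10.9 CPM in OAT-1746, 12.5 and 8.11 CPM in anti-PD-1, and 5.71, 9.44 and 10.9 CPM in COMB, from 77 to 198 counts per library. The COMB range enclosed CTR and ended just under the lower OAT-1746 library, and anti-PD-1 held both a value above every other library and one beside CTR. None of the searched elements occurred in its window, and neither TGACTCA nor a CArG box occurred in any of the 11 member windows.

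**Figure D1:**
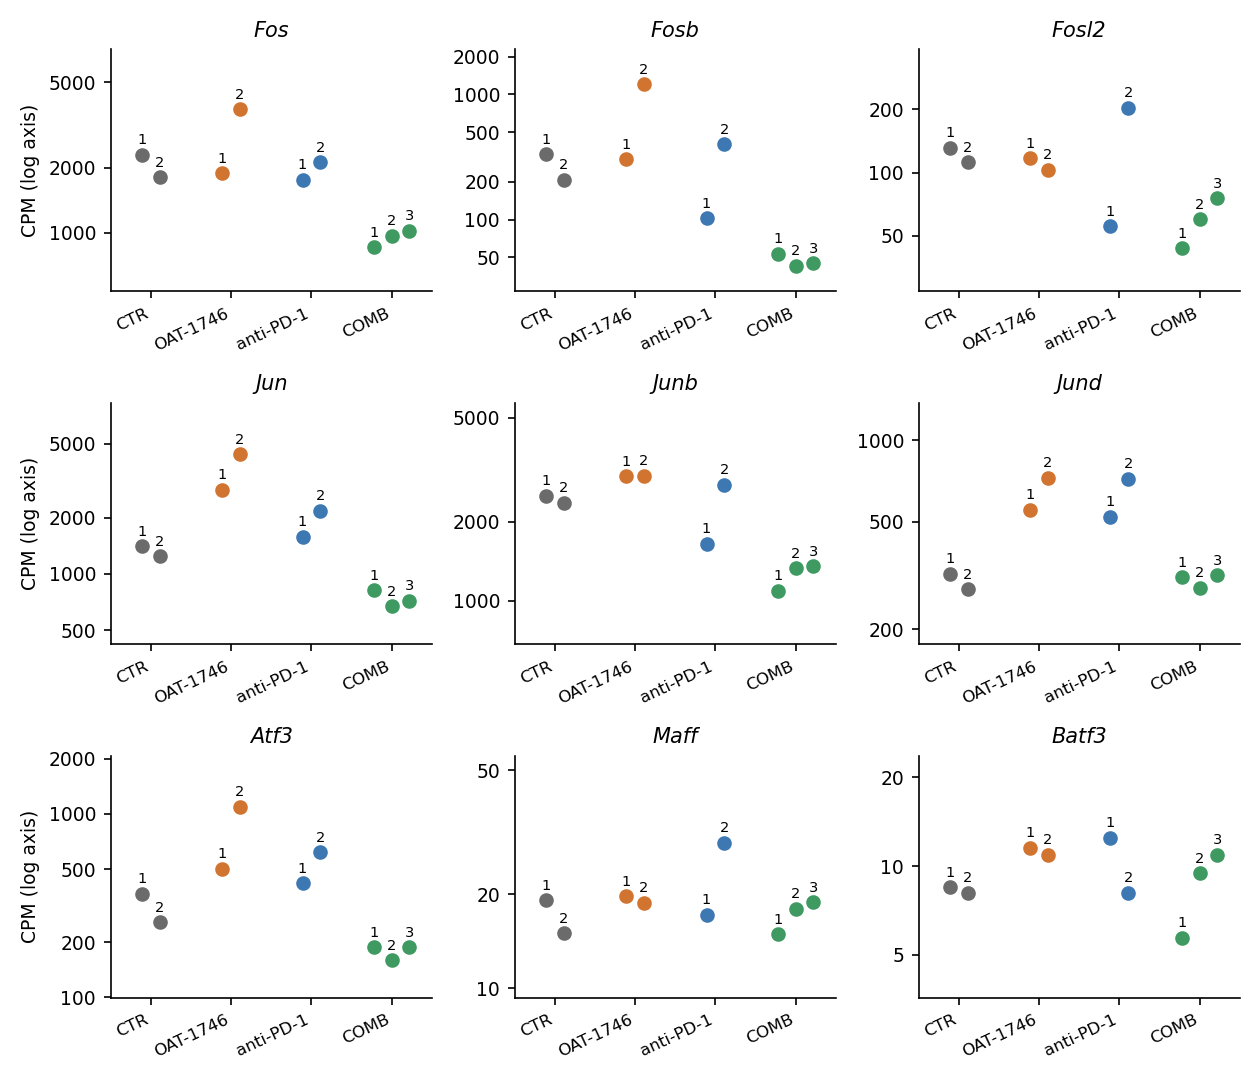
CPM of the 9 members (log axis, 1 panel each) in the 4 groups, where each point is 1 library and its digit the replicate number. COMB lies below the 6 other libraries for Fos, Fosb, Jun, Junb and Atf3 and at the CTR level for Jund, as at 312, 285 and 318 CPM against 322 and 282 CPM.

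All COMB libraries lay below the 6 other libraries for 5 of the 9 members, against 3.34% of the tested genes. They lay below both CTR libraries for 6 members, Fosl2 being added, against 15.8% of the tested genes. They lay below both anti-PD-1 libraries for 6 members, with Jund in place of Fosl2, against 16.4%, and below both OAT-1746 libraries for 8 members, all but Maff, against 28.9%, Batf3 by a very narrow margin. In the other direction, both OAT-1746 libraries lay above both CTR libraries for Jun, Junb, Jund, Atf3 and Batf3, 5 members against 30.8% of the tested genes. Both anti-PD-1 libraries lay above both CTR libraries for Jun, Jund and Atf3, 3 members against 20.6%.

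Per length of the joined exons, as RPKM (CPM per kilobase), the mean level in CTR was highest for Junb, at 1062 ± 47.8 RPKM (SD, n = 2), and then for Fos, at 872 ± 149 RPKM. Jun followed at 416 ± 37.3 RPKM, Jund at 181 ± 16.9 RPKM and Atf3 at 145 ± 36.4 RPKM, and the libraries of Jund and Atf3 overlapped. Fosb was at 43.3 ± 14.1 RPKM, and Fosl2, Maff and Batf3 were at 12.6, 6.57 and 5.19 RPKM. In OAT-1746 the top 3 could not be ordered beyond their spread, with Junb at 1302 ± 5.67 RPKM, Fos at 1197 ± 561 RPKM and Jun at 1129 ± 344 RPKM. In anti-PD-1 Junb, at 962 ± 344 RPKM, and Fos, at 826 ± 111 RPKM, overlapped, and Jun, at 591 ± 132 RPKM, lay below both. In COMB the order of the upper 5 members was that of CTR, with Junb at 547 ± 63.3 RPKM, Fos at 403 ± 36.2 RPKM, Jun at 231 ± 24.2 RPKM, Jund at 183 ± 10.5 RPKM and Atf3 at 82.8 ± 7.70 RPKM (SD, n = 3). At the low end of COMB, Fosb, at 7.54 RPKM, overlapped with Maff, at 6.65 RPKM, and Fosl2, at 6.17 RPKM, and lay above Batf3, at 5.44 RPKM, in every library, while Maff, Fosl2 and Batf3 overlapped. This rests on the length used: per length of the longest transcript, Fosb in COMB was at 14.1, 11.4 and 11.9 RPKM, above every COMB value of Maff and Batf3, and still overlapped with Fosl2.

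The summed level of the 9 members was 2957 and 2528 RPKM in CTR, 3625 and 5432 RPKM in OAT-1746, 2508 and 3615 RPKM in anti-PD-1, and 1392, 1471 and 1555 RPKM in COMB. The COMB libraries thus held the lowest sums and lay close to each other. The make-up of that sum differed less than its size. JUN-type members made up 58.5% and 62.8% of the summed RPKM in CTR, 69.4% and 57.3% in OAT-1746, 61.0% and 64.3% in anti-PD-1, and 66.0%, 65.2% and 64.6% in COMB, with every group inside the range of OAT-1746. Within the JUN type, Jund took 6.52% and 6.68% of the summed RPKM in CTR, 9.17% and 8.01% in OAT-1746, 12.5% and 12% in anti-PD-1, and 13.5%, 11.6% and 12.3% in COMB. CTR and OAT-1746 had the smaller Jund shares and the groups given the antibody the larger ones, with no overlap. The ratio of Jun to Fos in RPKM was 0.453 and 0.509 in CTR, 1.11 and 0.861 in OAT-1746, 0.665 and 0.757 in anti-PD-1, and 0.709, 0.511 and 0.519 in COMB. Both OAT-1746 libraries had the highest ratios, replicate 1 above replicate 2, and COMB overlapped with anti-PD-1.

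**Figure D2:**
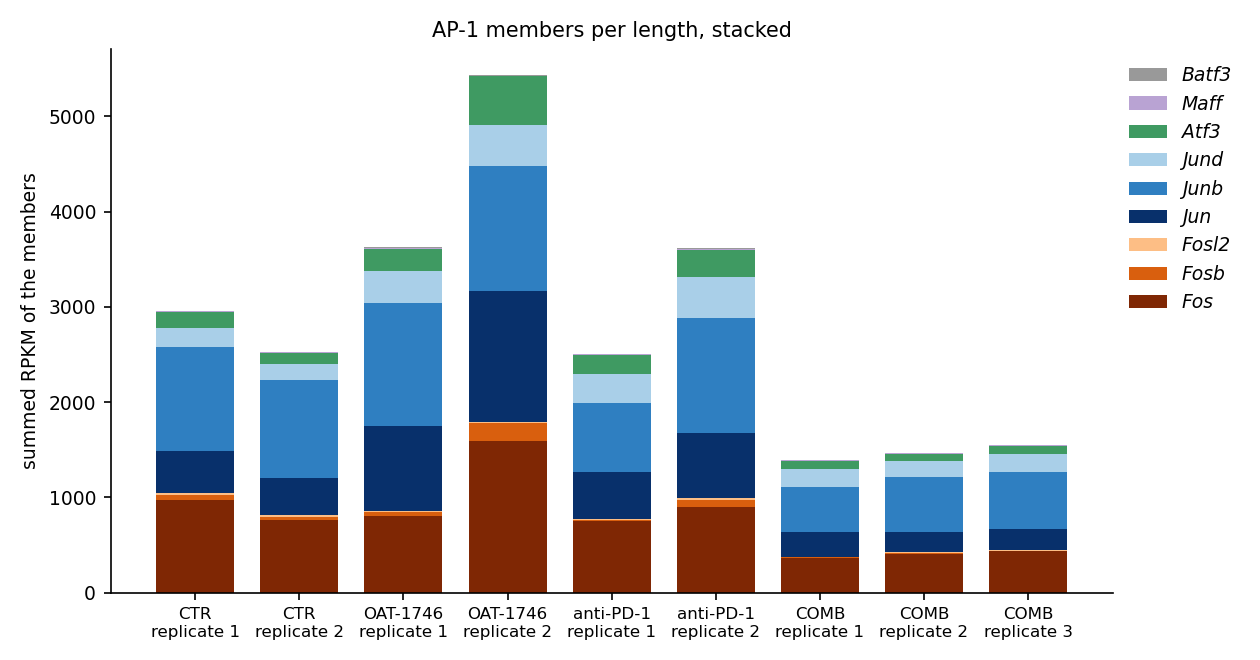
Stacked RPKM of the 9 members in each of the 9 libraries (vertical axis, summed RPKM). The COMB columns, from 1392 to 1555 RPKM, are the lowest, and that of OAT-1746 replicate 2, at 5432 RPKM, is the highest.

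The comparisons with CTR ask what each treatment did alone or together. A gene was called at an adjusted p under 0.05 in an edgeR fit of all 9 libraries, where the p-values measure spread between separate samples. For OAT-1746 against CTR, 0 of the 9 members and 0% of the 12538 tested genes were called. At an unadjusted p under 0.05, 3 members, Jun, Jund and Atf3, and 32.3% of the tested genes passed, and DESeq2 called these 3 members among 1996 genes and limma voom called none. Jun was higher in OAT-1746 by a log2 fold change of 1.44 (SE 0.26, adjusted p = 0.0610), Jund by 1.09 (SE 0.21, adjusted p = 0.0610) and Atf3 by 1.36 (SE 0.36, adjusted p = 0.0700). Fosb, at 1.48, had the largest difference and the largest standard error, 0.68. Fos was at 0.46 (SE 0.30), and the remaining 4 members lay between -0.15 and 0.44. Without OAT-1746 replicate 2 the log2 fold changes were 1.10 for Jun, 0.89 for Jund, 0.70 for Atf3, 0.17 for Fosb, -0.11 for Fos and 0.30 for Junb, and edgeR called none. Without OAT-1746 replicate 1, which leaves replicate 2 to stand for the group, it called 5 members, Fos, Fosb, Jun, Jund and Atf3, among 3617 of the 12847 genes tested in that fit, and without COMB replicate 1 it called Jun and Jund among 278 of 12481 genes.

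For anti-PD-1 against CTR, edgeR called 0 members and 0% of the tested genes. At an unadjusted p under 0.05, 1 member, Jund, and 5.12% of the tested genes passed. DESeq2 called Jund among 14 genes, and limma voom called none. The log2 fold change of Jund was 1.04 (SE 0.21, adjusted p = 0.951), near that under OAT-1746, and both comparisons share the CTR libraries. Atf3 was at 0.73 (SE 0.35), Jun at 0.51 (SE 0.25) and Maff at 0.45 (SE 0.25), and the 5 remaining members lay between -0.14 and 0.31. The replicates of anti-PD-1 were far apart for Fosb and Fosl2, so that leaving out replicate 2 moved their log2 fold changes to -1.41 and -1.14 and leaving out replicate 1 to 0.56 and 0.74. Without anti-PD-1 replicate 2, Atf3 was at 0.42, Jun at 0.25 and Maff at 0.008.

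For COMB against CTR, edgeR called 0 members and 0% of the tested genes. At an unadjusted p under 0.05, 6 members passed, all lower in COMB, against 6.58% of the tested genes. DESeq2 called Fos and Junb among 35 genes, and limma voom called none of the members and 2 genes in all. The log2 fold changes were -1.11 for Fos (SE 0.27), -2.52 for Fosb (SE 0.61), -1.03 for Fosl2 (SE 0.44), -0.85 for Jun (SE 0.23), -0.96 for Junb (SE 0.22) and -0.80 for Atf3 (SE 0.32). Their adjusted p-values were 0.673 for Fos, Fosb, Jun and Junb and 0.752 for Fosl2 and Atf3. Without CTR replicate 1 the log2 fold change of Atf3 was -0.50. Jund, at 0.02 (SE 0.19), Maff, at 0.02 (SE 0.23), and Batf3, at 0.07 (SE 0.29), were level with CTR. The median of the 9 members was -0.85, beside 0.00 for all tested genes.

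COMB against OAT-1746 asks what the antibody added to the inhibitor. Here edgeR called 6 of the 9 members, Fos, Fosb, Jun, Junb, Jund and Atf3, against 15.8% of the tested genes. All 6 were lower in COMB, where 8.94% of the tested genes were called lower, and DESeq2 and limma voom called the same 6 among 3062 and 2808 genes, 24.4% and 22.4% of those tested. On the log2 scale Fosb was at -3.998 (SE 0.64, adjusted p = 0.0171), Jun at -2.29 (SE 0.23, adjusted p = 0.00528) and Atf3 at -2.16 (SE 0.32, adjusted p = 0.0160). Fos had a log2 fold change of -1.57 (SE 0.27, adjusted p = 0.0192), Junb of -1.25 (SE 0.22, adjusted p = 0.0202) and Jund of -1.07 (SE 0.19, adjusted p = 0.0200). All 3 COMB libraries lay below both OAT-1746 libraries for each of these genes. Fosl2, at -0.88 (SE 0.44, adjusted p = 0.173), Maff, at -0.16 (SE 0.23), and Batf3, at -0.37 (SE 0.28), were not called. The median of the 9 members was -1.25, beside 0.00 for all tested genes. With a replicate block in the fit, edgeR called 0 members and 2 genes in this comparison. The log2 fold changes were about as large with the block, at -3.69 for Fosb, -2.25 for Jun and -2.15 for Atf3. Fos was then at -1.59, Junb at -1.32 and Jund at -1.09.

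Without OAT-1746 replicate 2, the 6 log2 fold changes were -1.93 for Jun (adjusted p = 0.00775), -2.67 for Fosb, -1.48 for Atf3, -0.98 for Fos, -1.23 for Junb and -0.85 for Jund. Only Jun was then called, 1 member among 27 genes, where a single OAT-1746 library is assumed to vary like the other groups. Leaving out COMB replicate 2 also left only Jun, among 14 genes, and leaving out COMB replicate 3 left 0 members and 5 genes, although the members' values hardly moved, with Jun at -2.26 and an adjusted p of 0.0518. The 6 members were called when any of the other 6 libraries was left out, in fits that called from 734 genes (without CTR replicate 1) to 4033 genes (without OAT-1746 replicate 1), 5.68% and 31.4% of those tested.

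For COMB against anti-PD-1, which asks what the inhibitor added to the antibody, edgeR called 0 members and 0% of the tested genes. At an unadjusted p under 0.05, 7 members passed, all lower in COMB, against 7.23% of the tested genes. DESeq2 and limma voom each called Jun, Jund and Atf3, among 47 and 35 genes. Jun was at a log2 fold change of -1.36 (SE 0.23, adjusted p = 0.363), Jund at -1.03 (SE 0.19, adjusted p = 0.403) and Atf3 at -1.54 (SE 0.32, adjusted p = 0.424). Fosb was at -2.41 (SE 0.61), Fosl2 at -1.12 (SE 0.44), Fos at -1.04 (SE 0.27) and Junb at -0.81 (SE 0.22), while Maff, at -0.43, and Batf3, at -0.24, did not pass. Without anti-PD-1 replicate 2 Fosl2 was at 0.11, Fosb at -1.12 and Junb at -0.39. Without either OAT-1746 library edgeR called 4 members, Fos, Jun, Jund and Atf3, among 52 genes without replicate 1 and 41 without replicate 2.

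The interaction takes the difference between COMB and anti-PD-1 and subtracts from it the difference between OAT-1746 and CTR. edgeR called 3 of the 9 members, Jun, Jund and Atf3, against 0.359% of the tested genes, 45 in all. The 3 were called with a negative value, as were 0.351% of the tested genes. Jun had an interaction of -2.80 (SE 0.34, adjusted p = 0.0289), Jund of -2.11 (SE 0.28, adjusted p = 0.0304) and Atf3 of -2.89 (SE 0.48, adjusted p = 0.0499) on the log2 scale. For these 3 members each agent alone was above CTR and the pair of agents was below either agent alone, which gives an interaction larger in size than the difference between COMB and OAT-1746. Fosb, at -3.89 (SE 0.93, adjusted p = 0.0875), had the largest value and was not called, nor were Fos, at -1.49 (SE 0.41, adjusted p = 0.102), and Junb, at -1.11 (SE 0.33, adjusted p = 0.112). Fosl2, at -0.97, Maff, at -0.61, and Batf3, at -0.68, were negative as well, and the median of the 9 members was -1.49, beside -0.02 for all tested genes. DESeq2 called 6 members, the 3 named and Fos, Fosb and Junb, among 1025 genes, and limma voom called the 3 among 428. With a replicate block in the fit, edgeR called 0 members and 0 genes, while the interaction was about as large, at -2.74 for Jun, -2.12 for Jund and -2.84 for Atf3.

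Without OAT-1746 replicate 2 the interaction was -2.43 for Jun (adjusted p = 0.0163), -1.89 for Jund (adjusted p = 0.0269) and -2.21 for Atf3 (adjusted p = 0.0402), so the 3 calls did not rest on that library. Fosb, which had the largest value, moved to -2.55, Fos to -0.90 and Junb to -1.08, and none of these was called. The 3 calls did rest on other libraries. Leaving out CTR replicate 1, CTR replicate 2, anti-PD-1 replicate 2, COMB replicate 2 or COMB replicate 3 left 0 members and 0 genes called. Leaving out anti-PD-1 replicate 1 left Jun and Jund, and leaving out OAT-1746 replicate 1 gave 5 members, Fos and Fosb being added, among 2734 of 12847 genes, or 21.3%. Over all 9 such fits the value ranged from -3.07 to -2.43 for Jun, from -2.32 to -1.85 for Jund and from -3.34 to -2.21 for Atf3. Without anti-PD-1 replicate 2 the interaction of Junb was -0.68 and that of Maff -0.16. Without anti-PD-1 replicate 1 that of Batf3 was -0.33.

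**Figure D3:**
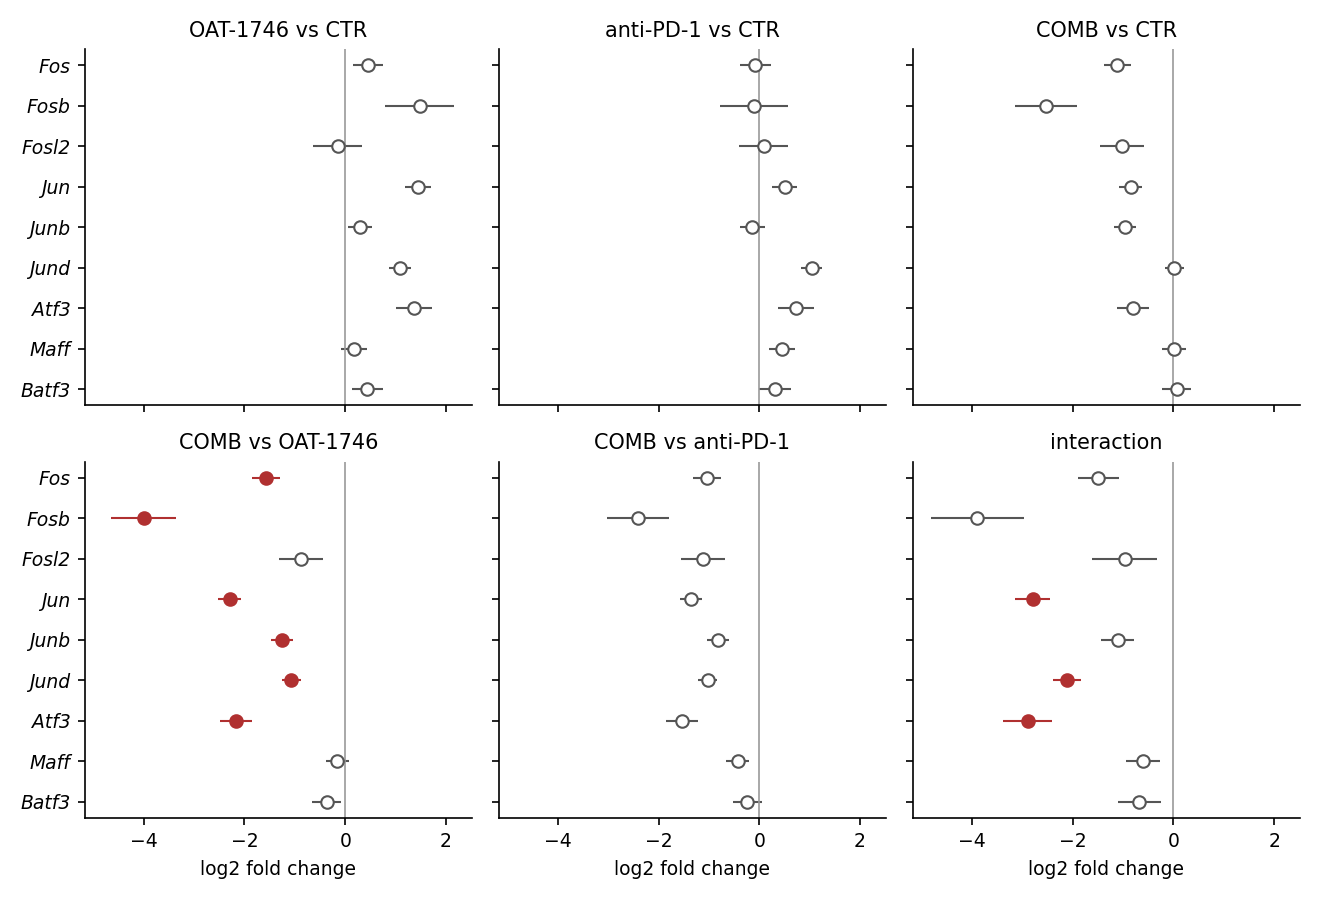
Log2 fold change of each member (horizontal axis, bars 1 SE from edgeR) in the 5 comparisons and the interaction; filled red points have an adjusted p under 0.05. In COMB against OAT-1746 the 6 filled members lie between -3.998 and -1.07.

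**Figure D4:**
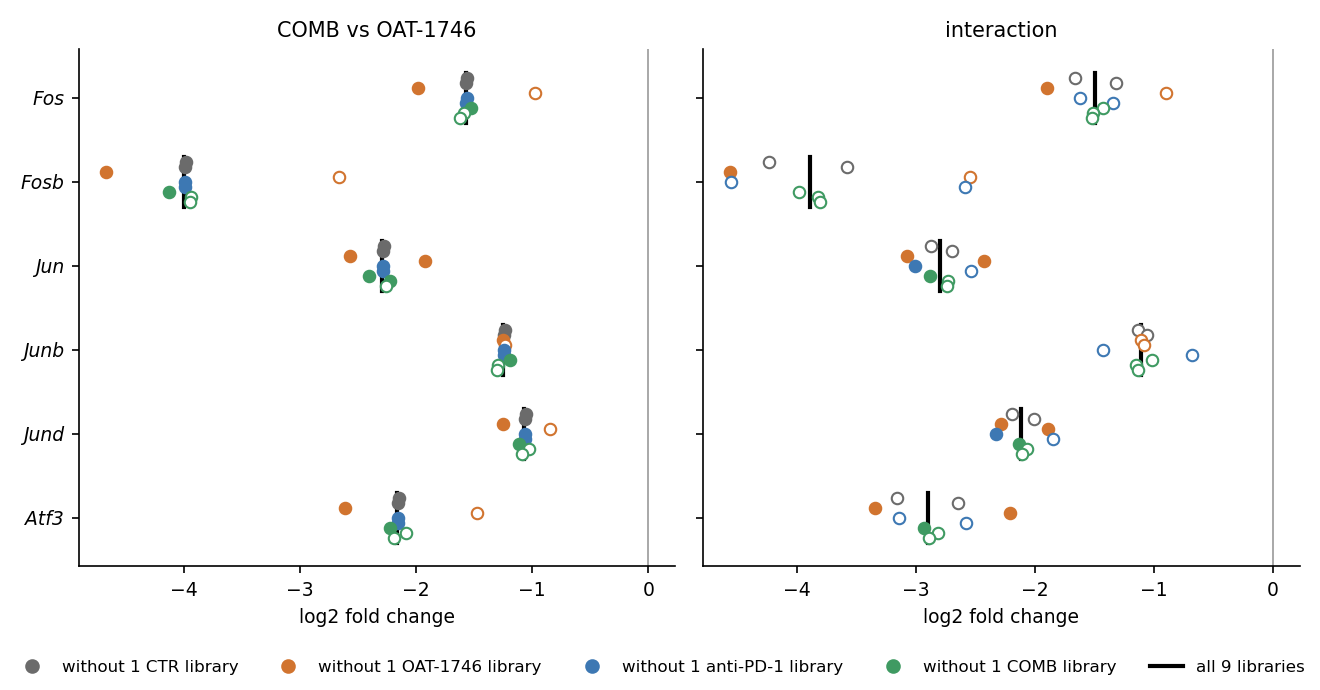
Log2 fold change of 6 members in COMB against OAT-1746 and in the interaction (horizontal axes) when 1 library is left out, with a black line for all 9 libraries; the colour gives the group of the library left out and filled points have an adjusted p under 0.05. Values keep their sign while many calls end, as for Jun in the interaction, from -3.07 to -2.43.

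Across the 9 libraries, which share the group differences, the members' log2 CPM values moved together to different degrees. The Pearson r was 0.97 for Jun with Atf3, 0.96 for Fos with Fosb, 0.91 for Jund with Atf3 and 0.90 for Fos with Jun. It was 0.69 for Fos with Jund and 0.67 for Fos with Fosl2. Fosl2 was closest to Junb, at 0.86, and Maff to Fosl2, at 0.725 (r over 9 libraries), the pair in which anti-PD-1 replicate 2 was highest. Batf3 reached at most 0.41, with Jund.

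The 10 tested genes outside the family whose log2 CPM was most like that of Fos over the 9 libraries were Ccl3 (r = 0.98), Fbrs (0.97), Pggt1b, Rasgef1b and Map2k7 (0.96 each), and Nfkbid, Bcl6, Nr4a1, Setd1b and Dcp1a (0.95 each). Ccl3, which encodes a chemokine, was at 101 and 62.8 CPM in CTR, 79.5 and 189 CPM in OAT-1746, 70.6 and 88.1 CPM in anti-PD-1, and 31.7, 24.6 and 27.9 CPM in COMB. Like Fos, it was highest in OAT-1746 replicate 2 and lower in COMB than in any other library. Since the 10 genes were chosen by likeness to Fos over these same libraries, their differences between groups restate the choice.

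Of 12 further AP-1 partners on a list, all 12 were in the table and 9 were tested. Nrl had 0 counts in every library, and Fosl1 and Mafa had at most 10 and 5 counts. In COMB against OAT-1746, 3 of the 9 were called, all lower, where 8.94% of all tested genes were, and in the interaction 1, where 0.359% were. Mafk, a small MAF like Maff, was at 35.1 and 32.0 CPM in CTR, 61.1 and 72.8 CPM in OAT-1746, 39.7 and 61.8 CPM in anti-PD-1, and 27.2, 26.9 and 30.8 CPM in COMB. The groups followed the order of Jun apart from an overlap of OAT-1746 and anti-PD-1, whereas Maff did not. The log2 fold change of Mafk was -1.24 (adjusted p = 0.0160) in COMB against OAT-1746 and -1.84 (adjusted p = 0.0420) in the interaction. Atf2 (-0.63, adjusted p = 0.0281) and Atf7 (-0.63, adjusted p = 0.0296) were lower in COMB than in OAT-1746 by smaller amounts. Maf (-0.67, adjusted p = 0.0542) and Mafg (-0.44, adjusted p = 0.0526) were not called. Batf, at 0.96 (adjusted p = 0.0643), and Batf2, at 1.44 (adjusted p = 0.0969), pointed the other way, and Jdp2 was at -0.10.

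The lists of genes around AP-1, like the members, were chosen with earlier results of these data known. They gave the following in COMB against OAT-1746, beside the 6 of 9 members and the 15.8% of all tested genes called, 8.94% lower. Of 22 other immediate early genes, 17 were called lower and 0 higher, and 3 were called in the interaction, against 0.359% of all tested genes, Egr1 (-3.87, adjusted p = 0.0285), Ier5 (-1.94, adjusted p = 0.0354) and Ier2 (-1.73, adjusted p = 0.0304). Their median was -1.31 in COMB against OAT-1746 and -1.60 in the interaction, near the medians of the members. Egr1 was at 767 and 851 CPM in CTR, 2591 and 3730.0 CPM in OAT-1746, 655 and 1117 CPM in anti-PD-1, and 224, 231 and 256 CPM in COMB, highest in OAT-1746 and lowest in COMB as Jun was. Zfp36, the most abundant of them by CPM, was at 2099 and 2151 CPM in CTR, 2813 and 2873 CPM in OAT-1746, 1771 and 2280.0 CPM in anti-PD-1, and 983, 1267 and 1317 CPM in COMB. Of 28 genes of the MAP kinase cascade and its SRF, TCF and CREB factors, 2 were called higher and 7 lower, with a median of -0.32, and Map3k8 alone was called in the interaction (-1.95, adjusted p = 0.0289). Rps6ka1, the most abundant of these by CPM, was at -0.51 (adjusted p = 0.0623).

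Textbook AP-1 target genes were set beside the members by counts and medians only, and the difference between the lists was not tested. In OAT-1746 against CTR, 13 of the 16 tested were lower, with a median of -0.85, while 8 of the 9 members were higher, with a median of 0.46. There edgeR called 0, and 5 targets lower and 1 higher had an unadjusted p under 0.05, against 32.3% of all tested genes. Of the 16, 1 was called higher and 1 lower in COMB against OAT-1746, near the 15.8% of all tested genes called, with a median of 0.49, against -1.25 for the members. In COMB against CTR and against anti-PD-1, 12 of the 16 were lower, with medians of -0.44 and -0.62, beside -0.85 and -1.04 for the members. In these comparisons edgeR called 0 of the 16, where 3 and 5 of them had an unadjusted p under 0.05, against 6.58% and 7.23% of all tested genes. In the interaction 7 of the 16 were positive and 9 negative, with a median of -0.06. There 1 was called, against 0.359% of all tested genes. Their summed level was 4416 and 3117 CPM in CTR, 2354 and 1089 CPM in OAT-1746, 2977 and 4544 CPM in anti-PD-1, and 2423, 2659 and 2716 CPM in COMB. It was lowest in OAT-1746 replicate 2, the library with the highest summed level of the members. That library also had the lowest sum of the monocyte and macrophage genes, at 1029 CPM. Itgax, the most abundant of the targets by CPM, ran from 96.4 CPM in OAT-1746 replicate 2 to 1431 CPM in CTR replicate 1. Tnf, the target called lower in COMB than in OAT-1746, was at 123 and 151 CPM in CTR, 176 and 167 CPM in OAT-1746, 94.98 and 149.96 CPM in anti-PD-1, and 46.5, 43.2 and 36.9 CPM in COMB. Its log2 fold change there was -2.02 (adjusted p = 0.00528), with an interaction of -1.86 (adjusted p = 0.0495). Hmox1, the gene called higher in COMB than in OAT-1746 (1.26, adjusted p = 0.0435), was chosen after its values were seen.

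Heat shock genes were listed because cell stress acts on both groups of genes. Of 12 tested, 3 were called lower and 0 higher in COMB against OAT-1746, where 8.94% of all tested genes were called lower. There 8 of the 12 were on the higher side, with a median of 0.06. In the interaction edgeR called 0, where 5 of 12 had an unadjusted p under 0.05, against 26.2% of all tested genes. Hspa1a was at 24.9 and 8.23 CPM in CTR, 20.7 and 134 CPM in OAT-1746, 33.7 and 60.1 CPM in anti-PD-1, and 5.41, 6.34 and 6.73 CPM in COMB. Hspa1b is a near-identical copy. The paper counted only reads at or above a set mapping quality, so reads that fit both copies may be left out, and both levels are uncertain. Hspa1b was at 20.6 and 0.647 CPM in CTR, 7.97 and 122 CPM in OAT-1746, 30.9 and 45.6 CPM in anti-PD-1, and 4.15 to 7.09 CPM in COMB. Its lowest library was thus CTR replicate 2. The interaction of Hspa1a was -5.15 (adjusted p = 0.0736) and that of Hspa1b -5.46 (adjusted p = 0.117). Dnajb1 had an interaction of -1.82 (adjusted p = 0.0753). Hspa8, the most abundant of the list by CPM, was lowest in OAT-1746 replicate 2, at 1356 CPM, where Fos, Jun and Hspa1a were highest. The part of cell stress in the members' levels was not tested.

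Markers of cell types moved with the members in some libraries. The 10 microglia genes summed to 13539 and 21600.1 CPM in CTR, 28362 and 35504 CPM in OAT-1746, 20204 and 16396 CPM in anti-PD-1, and 24675, 18475 and 17357 CPM in COMB. The 10 monocyte and macrophage genes, with Tgfbi as the most abundant, summed to 9416 and 8514 CPM in CTR, 6547 and 1029 CPM in OAT-1746, 8576 and 10245 CPM in anti-PD-1, and 6600.2, 9897 and 10346 CPM in COMB. OAT-1746 replicate 2 thus had the highest microglia sum and the lowest monocyte and macrophage sum, and in COMB against OAT-1746 all 10 microglia genes were lower, 2 of them called and 9 with an unadjusted p under 0.05, with a median of -0.71. Of the 10 monocyte and macrophage genes, 9 were higher there, edgeR called 0 and 3 had an unadjusted p under 0.05, with a median of 0.77. Of all tested genes 15.8% were called in this comparison, 8.94% lower, and 37.1% had an unadjusted p under 0.05. The 8 neuron genes, led by Camk2a, summed to 13.9 and 24.9 CPM in CTR, 52.0 and 47.3 CPM in OAT-1746, 17.2 and 20.1 CPM in anti-PD-1, and 14.7, 11.5 and 12.3 CPM in COMB, and 6 of 8 were called lower in COMB than in OAT-1746. Both OAT-1746 libraries were high in these, as they were in Jun. Every neuron gene but Camk2a had at most 92 counts in any library. In OAT-1746 against CTR all 10 microglia genes (median 0.93) and all 8 neuron genes (median 1.43) were higher. All 10 monocyte and macrophage genes were lower there (median -0.88). An unadjusted p under 0.05 was reached by 10, 5 and 3 of these, against 32.3% of all tested genes, and edgeR called 0. In the interaction all 10 microglia genes were negative (median -0.82, 3 with an unadjusted p under 0.05), as were all 8 neuron genes (median -1.74, 4 with an unadjusted p under 0.05), against 26.2% of all tested genes with such a p, and edgeR called 0 of either list. The part of the cell mixture in the members' levels was not tested, and in bulk samples fewer cells of a type and less RNA per cell cannot be told apart.

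In COMB against OAT-1746, 1 of 7 border-associated macrophage genes (F13a1 most abundant) was called higher, 1 of 9 neutrophil genes (Csf3r) lower, and 2 of 6 astrocyte genes (Aldoc) higher and 1 lower. Of all tested genes 15.8% were called there, and 8.94% were called lower. Of the lists of 7 dendritic cell (Ccr7), 9 NK cell (Klrk1), 6 T cell (Cd4), 3 B cell (Cd79b), 6 oligodendrocyte (Cnp) and 6 endothelial cell (Flt1) genes tested, 0 were called by edgeR in that comparison, while 3 NK cell genes and 1 oligodendrocyte gene had an unadjusted p under 0.05, no larger a share than the 37.1% of all tested genes. The NK cell sum was 77.4 and 82.9 CPM in CTR and 110.5 and 24.7 CPM in OAT-1746. It was 328 and 199 CPM in anti-PD-1 and 85.4, 171 and 183 CPM in COMB, an order unlike that of the members. Against CTR all 9 NK cell genes were higher in anti-PD-1 (median 2.25, 8 with an unadjusted p under 0.05) and COMB (median 1.41, 4). In COMB against anti-PD-1 all 9 were lower (median -0.88, 2 with such a p), as all 9 members were. In the interaction 8 were negative (median -1.02, 2 with such a p), as were 5 of 6 T cell genes (0). Such a p was reached by 5.12%, 6.58%, 7.23% and 26.2% of all tested genes, and edgeR called 0 of either list. None of the marker genes in the table had 0 counts in every library, but the CD3 and CD8 genes had at most 19 counts in any library. Dendritic cell sums ran from 65.2 CPM in OAT-1746 replicate 2 to 129 CPM in anti-PD-1 replicate 1. The astrocyte sum was 128, 125 and 123 CPM in COMB, above every other library, where it ran from 66.9 to 85.3 CPM. In COMB against CTR 5 of the 6 astrocyte genes were higher with an unadjusted p under 0.05 (median 0.91), against 6.58% of all tested genes. There edgeR called 0 of them.

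**Figure D5:**
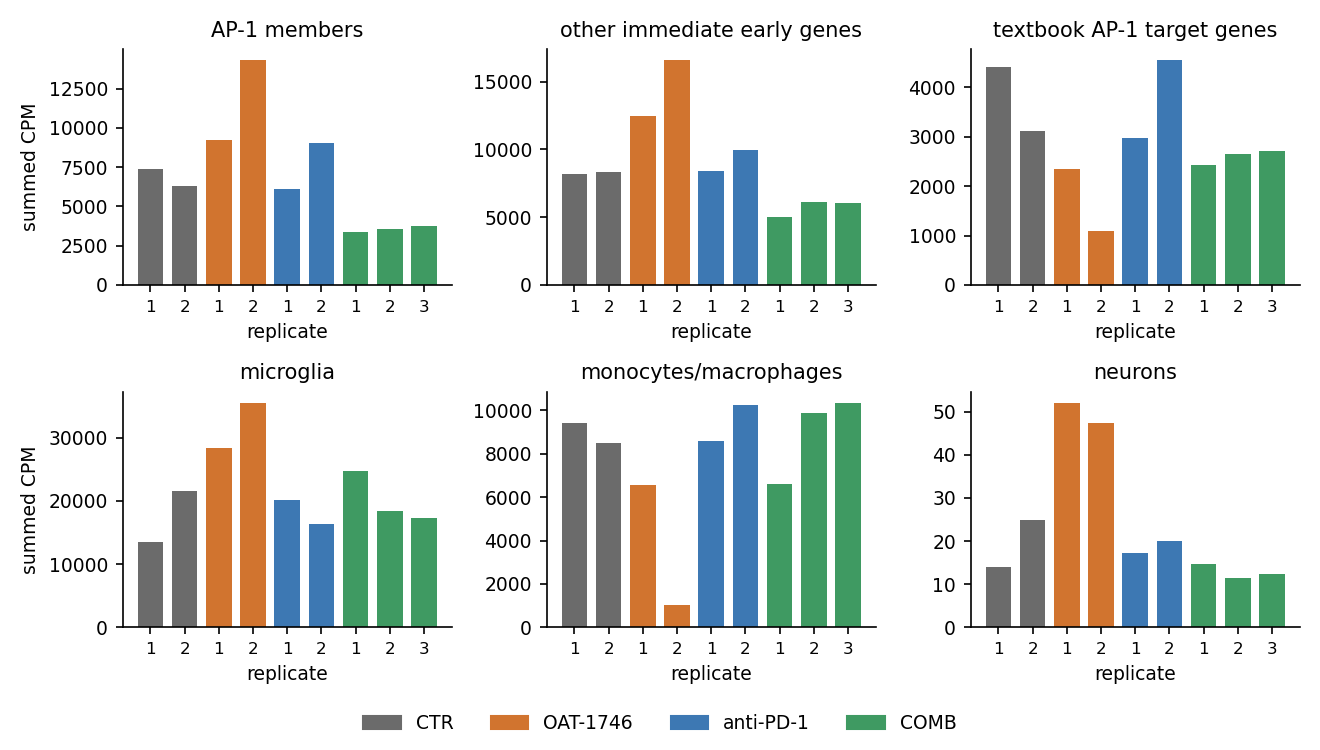
Summed CPM (vertical axes, from 0) of 6 gene lists in each library, coloured by group and numbered by replicate. The members and the other immediate early genes are lowest in COMB, at 3385 to 3750.0 and 5010.1 to 6139 CPM, while the AP-1 target genes and the monocyte and macrophage genes are lowest in OAT-1746 replicate 2.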

How the data were processed

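What the authors deposited is a count for each gene and library. The submitters' processing notes name Trimmomatic, STAR, Picard, HTSeq, DESeq2 and build mm10. Of 53801 genes, 53620 matched GENCODE M21, 21890 were protein-coding, and edgeR's filterByExpr (minimum count 10) left 12538. edgeR 4.0.16 (R 4.3.3) used TMM scaling (factors 0.958 to 1.06) and quasi-likelihood tests of 1 fit with a mean per group, with Benjamini-Hochberg adjustment over all tested genes. The common biological coefficient of variation was 0.214. Log2 CPM used a prior count of 2. Lengths are the union of GENCODE exons. Python 3.11.15 and matplotlib 3.10.9 made the figures.

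The members and gene lists were chosen with earlier results of these data known. Genes named are the members, the listed partners, the most abundant gene of each list, up to 3 genes per pathway list by size of the interaction among those called (if none was, those with an unadjusted p under 0.05), and the 10 genes most like Fos, leaving out names withheld for evaluation. Of 8 listed T cell genes 7 were in the table.

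Alternatives were DESeq2 1.42.0, its size factors in edgeR, library size alone, no low-count filter, 10 counts in every library, all gene types, robust dispersion, limma 3.58.1 voom with quality weights, a replicate block, leaving out each library, and the longest transcript as length. The label of anti-PD-1 replicate 2 names PD-2, and it was grouped by its title. COMB replicates 2 and 3 differed by 3.69 times sampling noise, the least of any replicate pair (up to 18.3 times), and were kept as separate libraries. The steps were tested on simulated data.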

Additional observations from a re-analysis of the deposited data

Results flagged for a closer look

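The effect of OAT-1746 differed between mice with and without anti-PD-1 for 3 members, by the interaction test of the edgeR fit. The difference was -2.80 for Jun, -2.11 for Jund and -2.89 for Atf3 on the log2 scale. Without the antibody both OAT-1746 libraries lay above both CTR libraries for each of the 3, as for 30.8% of the tested genes. With it all 3 COMB libraries lay below both anti-PD-1 libraries, as for 16.4% of the tested genes. These positions restate the values behind the calls. With 2 libraries in 3 of the 4 groups, each call rests on spread shared between groups and genes, and leaving out 1 of 5 libraries ended all 3 calls. In the same interaction all 10 microglia marker genes (median -0.82) and all 8 neuron marker genes (median -1.74) were negative. Of these, 3 and 4 had an unadjusted p under 0.05, against 26.2% of all tested genes. Among other lists, 8 of 9 NK cell genes (median -1.02, 2 with such a p) and 5 of 6 T cell genes (0) were negative. Of 10 monocyte and macrophage genes, 8 were positive (median 0.73, 0 with such a p). None of these marker genes was called by edgeR, and their part in the result was not tested. Every neuron gene but Camk2a had at most 92 counts in any library, and the CD3 and CD8 genes had at most 19.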

How the results depend on the processing

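In COMB against OAT-1746 the 6 members were called by edgeR under 6 of its other settings and by DESeq2 and limma voom, and with the replicate block 0 were. The replicate block also ended the 3 calls of the interaction, leaving 0. The values of the called members stayed about as large with the block, as for Jun at -2.25 in COMB against OAT-1746 and -2.74 in the interaction. For libraries with equal numbers in different groups, the deviations from the group mean had correlations of -0.349 to 0.0999 over the tested genes. In groups of 2 libraries these deviations mirror each other, so the values cannot decide whether the numbers pair libraries. The cause of the change was not tested. In the interaction DESeq2 called 6 among 1025 genes (8.18%), no low-count filter 4 among 146, and DESeq2 size factors, library size alone and all gene types 2 each (Jun and Jund) among 39, 24 and 18. Scaling by library size alone moved the median of all tested genes in the interaction to -0.11.

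Against CTR, DESeq2 called 3 members for OAT-1746 among 1996 genes (15.9%), 1 for anti-PD-1 among 14 and 2 for COMB among 35, and 3 were called for OAT-1746 with no low-count filter among 587 of 16075 genes (3.65%). In COMB against anti-PD-1 DESeq2 and limma voom each called 3, among 47 and 35.

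Leaving out 1 library, the members called ranged from 0 to 5 for OAT-1746 against CTR, from 0 to 6 for COMB against OAT-1746, from 0 to 4 for COMB against anti-PD-1 and from 0 to 5 for the interaction. The upper ends were reached without OAT-1746 replicate 1, in fits that called 28.2%, 31.4%, 0.405% and 21.3% of the tested genes, though 6 in COMB against OAT-1746 and 4 in COMB against anti-PD-1 were also reached without other libraries. They stayed at 0 for anti-PD-1 and COMB against CTR. Fewer libraries also leave fewer degrees of freedom.

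The sign of a log2 fold change reversed only for values that were not called. With limma voom Fosl2 in anti-PD-1 against CTR was at -0.18 and Batf3 in COMB against anti-PD-1 at 0.034. With the replicate block Fosl2 in anti-PD-1 against CTR was at -0.065, and in COMB against CTR Jund was at -0.015, Maff at -0.068 and Batf3 at -0.13.

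Leaving out 1 library, values that changed sign ranged as follows. In OAT-1746 against CTR Fos ran from -0.11 (without OAT-1746 replicate 2) to 0.87 and Maff from -0.0001 (without CTR replicate 2) to 0.37. In anti-PD-1 against CTR Fos ran from -0.25 to 0.11, the high end without CTR replicate 1. Leaving out an anti-PD-1 library set both ends for Fosb (-1.41 to 0.56), Fosl2 (-1.14 to 0.74), Junb (-0.57 to 0.19) and Batf3 (-0.028 to 0.58). In COMB against CTR Jund ran from -0.080 to 0.14 and Maff from -0.15 to 0.22, low without CTR replicate 2 and high without CTR replicate 1, and Batf3 from -0.12 (without COMB replicate 3) to 0.27. In COMB against anti-PD-1 Fosl2 ran from -1.77 to 0.11, Maff from -0.76 to 0.0084 and Batf3 from -0.51 to 0.10, and in the interaction Fosl2 from -1.62 to 0.27, each set by the anti-PD-1 libraries. The cause of these changes was not tested.

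With the longest transcript as length, the level per length of Fosb moved by the largest ratio, from 47.8 to 78.97 RPKM, less than its spread over the libraries, the level per length of Maff was 9.69 RPKM and the level per length of Batf3 was 8.58 RPKM, as means over the libraries.

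A group with a lone library left is assumed to vary like the other groups.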
